A study of Homo sapiens with 12 samples.

Results

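The genes described here encode the nucleoporins, the proteins that build the nuclear pore complex, and the receptors and regulators that carry cargo through it. They were taken from the count table by name: NUP, XPO, IPO or TNPO followed by digits, KPNA followed by a single digit, KPNB1, RANBP2, TPR, POM121, NDC1, AAAS, SEH1L, RAE1, CSE1L, RAN, RANGAP1, RCC1, NXF1 and NXT1. This rule gave 57 of 59385 gene names, and 56 of them were among the 18166 genes with enough counts to be tested. The remaining member was KPNA7, an importin alpha, which had 0 counts in all 12 libraries. Taking 3 counts as the limit, that allows a level of up to 0.144 CPM (counts scaled to a common library size) in the deepest library. In the shallowest library it allows up to 0.304 CPM. Both limits use plain library totals, not the TMM scaling of the other CPM values. Intervals of this kind cover counting error only.

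Cells of HEK293T, a cell line from human embryonic kidney, expressed either an shRNA against PRRC2B, an RNA-binding protein, or a control shRNA without a target. The groups are shPRRC2B and shCtrl cells, both with Dox in the medium for 36 h to induce the shRNA, and both grown from a single clone according to the methods, so that shRNA and clone cannot be told apart. From each line, total RNA and the combined RNA of the heavy gradient fractions (polysome RNA) were poly(A)-enriched and sequenced in 3 replicates, which makes 4 groups and 12 libraries. The replicates are labelled biological, but all 3 of a group come from the same clone, and p-values measure only the spread between them. Library totals ranged from 9855734 to 20837542 counts. PRRC2B itself had 272, 313 and 258 CPM in the total RNA of shCtrl cells and 97.9, 102.5 and 100.5 CPM in that of shPRRC2B cells, a log2 change of -1.49 ± 0.17 (standard error, SE). Of the markers for this line, NEFL (39.9 to 192.5 CPM), NEFM (7.61 to 309 CPM) and PAX2 (2.55 to 12.7 CPM) were present in every library, whereas LHX1 reached at most 7 counts. PTPRC, ALB, PECAM1 and COL1A2, markers of leukocytes, hepatocytes, endothelium and fibroblasts, reached at most 5 counts. In bulk RNA, fewer cells that express a gene and less of its RNA per cell cannot be told apart.

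The nuclear pore is built from stacked rings of nucleoporins, the outer, inner and membrane rings, which hold a channel filled with nucleoporins rich in phenylalanine-glycine repeats, and from filaments on its cytoplasmic face and a basket on its nuclear face. Importins bind cargo in the cytoplasm and release it in the nucleus on binding Ran-GTP, while exportins bind cargo together with Ran-GTP in the nucleus. The Ran gradient is kept up by RCC1 on chromatin and RANGAP1 in the cytoplasm, whereas bulk mRNA leaves through NXF1 and NXT1 without Ran.

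PAR-CLIP, a crosslinking method that maps the sites of a protein on RNA, places PRRC2B on some of these mRNAs. Taken as locations only, from the lists published with the study, sites lay on 5 of the 57 members. The sites on KPNA2, NUP50, KPNA4 and NUP188 were those of full-length PRRC2B, and the site on NUP98 was that of its RNA-binding fragment P2. None of the members (0) is among the mRNAs on which both kinds of site overlap. The share of all genes with a site was not computed, so neither count is read as high or low. For each site, the stretch of 30 bases richest in either purines or pyrimidines is given below from GRCh38, 5′ to 3′ on the strand of the mRNA, because these are the members on which a contact with PRRC2B was mapped. Each stretch was picked within a longer site for that richness, so its count of purines or pyrimidines is no result. It need not hold the crosslinked base. Capitals mark the longest unbroken run of purines or of pyrimidines.

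KPNA2: aagaaggatgaccagatgctGAAGAGGAGA
NUP50: tctctggctgaaccggcgctctcgCCTCCC
KPNA4: ggccatggcggacaacGAGAAActggacaa
NUP188: ccccagtgcttttggcctgggCTCTCCTCC
NUP98: ggtcggtggcAGGGGtggtagcggcggcgg

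The KPNA2 stretch lies at chr17:68037406-68037435 on the plus strand, in the coding sequence of exon 3, and holds 24 purines with a run of 10. The NUP188 stretch lies at chr9:128970804-128970833 on the plus strand, in the coding sequence of exon 11, and holds 22 pyrimidines with a run of 9. The KPNA4 stretch, at chr3:160565257-160565286 on the minus strand, spans the start codon in exon 1, with 26 of its 30 bases in the coding sequence. It holds 21 purines with a run of 6. The NUP50 stretch at chr22:45164053-45164082 (plus strand) and the NUP98 stretch at chr11:3797489-3797518 (minus strand) both lie in the 5′ UTR within exon 1. NUP50 has 21 pyrimidines with a run of 6, and NUP98 has 21 purines with a run of 5. All 5 members with a site had lower TE in shPRRC2B cells by the call described next, as did 32 of the 51 tested members without one and 16.4% of all genes. NUP50 and KPNA4 lost that call with the trend on transcript length removed, and NUP98 when a replicate block was added to that step, while NUP188 and KPNA2 kept it under all 22 alternatives tried. This is a description of few genes, and no test was run on it.

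Translation efficiency (TE) is the ratio of polysome RNA to total RNA, and the TE change is the difference of the log2 ratio between shPRRC2B and shCtrl cells. The calls TE-up and TE-down required a log2 change of more than 0.5 in either direction together with an adjusted p below 0.05, from the quasi-likelihood test of edgeR, adjusted by Benjamini-Hochberg over the whole set of tested genes. Most members were TE-down. Of the 56 members, 37 were TE-down (66.1%), against 16.4% of all genes tested, and 1 was TE-up, NUP42, against 10.7% of all genes. The median log2 TE change of the members was -0.87, compared with -0.03 over all genes, and 52 of 56 members lay below 0. The TE-down members include the main import receptor KPNB1, the main export receptor XPO1, both large proteins of the cytoplasmic filaments (RANBP2 and NUP214), all members of the membrane ring and all members of the nuclear basket. Nucleoporins (18 of 28 TE-down, median log2 TE change -0.93) and transport receptors (18 of 23, median -1.02) were both mostly TE-down.

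Lower TE came with less polysome RNA in most TE-down members and with more total RNA in some. In polysome RNA, 31 of the 56 members were lower in shPRRC2B cells (21.4% of all genes were), 0 were higher by edgeR's quasi-likelihood test (18.4% of all genes were), and the median log2 change was -0.61 against -0.01 over all genes. In 32 members every shPRRC2B polysome library lay below every shCtrl polysome library, which was so for 21.5% of all genes. In total RNA, 12 members were higher (14.9% of all genes) and 3 were lower (14.1% of all genes), namely NUP210, NUP62 and NUP42, with a median log2 change of 0.29 against 0.04 over all genes. All shPRRC2B total libraries lay above all shCtrl total libraries in 35 members, compared with 34.1% of all genes. The count in total RNA depended on scaling. With scaling by library totals, 5 members were higher (2143 of the 18166 genes were) and 3 lower (2978 genes were). With the trend on transcript length removed from each library, 6 were higher (2069 of the 15762 genes were) and 4 lower (2429 genes were). In both settings, the share of members higher in total RNA lay below that of all genes.

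Among the 37 TE-down members, 20 were lower in polysome RNA without a call in total RNA. In 5 members (NUP98, NUP50, KPNA2, IPO13 and RANGAP1) total RNA was higher with no call in polysome RNA, and in 5 others (NUP43, NUP155, RANBP2, IPO11 and CSE1L) total RNA was higher and polysome RNA lower. Of the latter, RANBP2 kept both calls under all alternatives, whereas with the length trend removed NUP43 and CSE1L lost the call in total RNA and NUP155 and IPO11 that in polysome RNA. A further 6 (NUP107, NUP160, NUP37, TNPO2, XPO5 and XPO7) were called in neither fraction alone. NUP210 was lower in both.

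**Figure D1:**
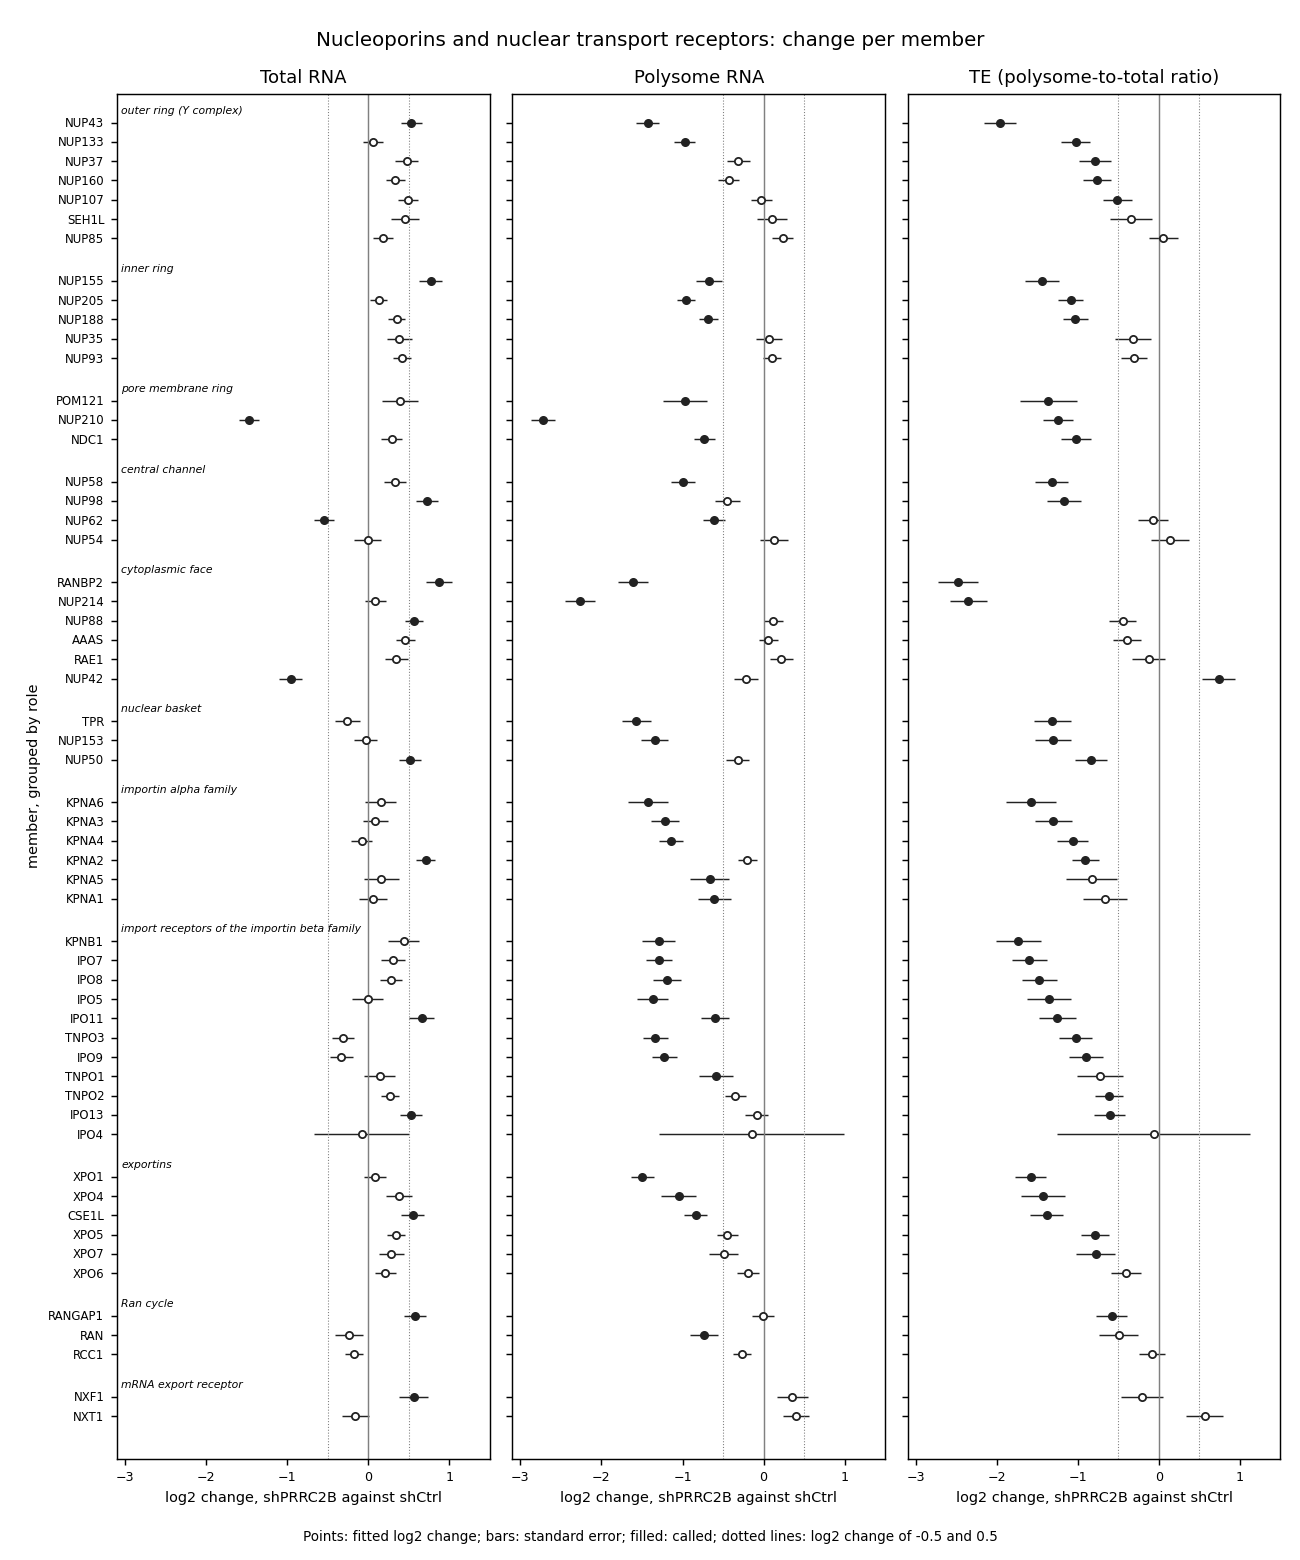
Fitted log2 change (x axes) with its SE between shPRRC2B and shCtrl cells in total RNA, polysome RNA and TE, for the 56 tested members (y axis) grouped by role, with filled points for changes called at an adjusted p below 0.05 and beyond the dotted lines at -0.5 and 0.5. Most points lie near or right of 0 in total RNA (median 0.29) and left of 0 in polysome RNA (median -0.61) and TE (median -0.87), with NUP42 the filled point on the right in TE.

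The outer ring is made by the Y complex, a scaffold that also binds kinetochores in mitosis. Of its 7 members, 5 were TE-down (median log2 TE change -0.76). NUP43, a beta-propeller protein of the short arm of the Y, fell most. It had 95.6, 95.4 and 91.0 CPM in shCtrl total RNA and 138, 135 and 134 CPM in shPRRC2B total RNA, but 29.5, 35.3 and 38.6 CPM in shCtrl polysome RNA and 14.5, 13.6 and 10.2 CPM in shPRRC2B polysome RNA. The groups did not overlap in either fraction and moved in opposite directions. Its log2 change was 0.53 ± 0.13 (SE) in total RNA, -1.43 ± 0.15 in polysome RNA and -1.96 ± 0.20 in TE, a TE 3.9-fold lower (edgeR adjusted p = 1.11e-05). The call in total RNA was lost when each polysome library was left out in turn (lowest value 0.48). NUP133, which contacts the membrane (-1.03 ± 0.18), NUP37 (-0.79 ± 0.20) and NUP160 (-0.76 ± 0.18) were TE-down as well.

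NUP107, the eponymous subunit of this complex, was at the edge of the call. Its total RNA was 82.3, 77.3 and 86.8 CPM in shCtrl cells and 109, 114 and 121 CPM in shPRRC2B cells, without overlap, while its polysome RNA overlapped (28.9 to 33.4 CPM against 26.3 to 35.3 CPM). The TE change was -0.51 ± 0.18 (edgeR adjusted p = 0.0421). In 9 of the 12 analyses without a single library, which comprised every total library, shCtrl polysome replicate 1 and shPRRC2B polysome replicates 2 and 3, the call was lost, with TE changes of -0.45 to -0.69 and adjusted p of 0.00614 to 0.109 over the 12. In all, NUP107 was TE-down under 5 of 22 alternatives. The call was lost with scaling by library totals (adjusted p = 0.104), TMM within fractions (0.0754), all genes with a count (0.0739), 10 counts in every library (0.0543) and a block for cultures (0.0795), and the change was 0.0551 with the length trend removed. NUP85 (0.05 ± 0.18) and SEH1L (-0.35 ± 0.26), which sit next to NUP43 in the short arm, had no call. SEH1L was TE-down without shPRRC2B polysome replicate 1, at -0.65.

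In the inner ring, the 3 members with the longest coding sequences were TE-down, and NUP93 and NUP35 were not. By transcript length NUP93 was the longest of the ring (8234 nt). NUP155, which links the ring to the membrane, had 131.5, 127.5 and 136 CPM in shCtrl total RNA and 223, 235 and 216 CPM in shPRRC2B total RNA. In polysome RNA it had 24.1, 30.5 and 34.9 CPM in shCtrl cells and 21.7, 19.6 and 14.7 CPM in shPRRC2B cells, again apart in both fractions and in opposite directions. Its TE change was -1.44 ± 0.21, a 2.72-fold lower TE (edgeR adjusted p = 0.000149). The scaffold proteins NUP205 (-1.09 ± 0.15) and NUP188 (-1.03 ± 0.16), which are related in sequence, changed by similar amounts. NUP93, which binds both, had a total RNA of 89.2 to 91.0 CPM in shCtrl cells and 118 to 122 CPM in shPRRC2B cells, with overlapping polysome RNA (46.1 to 48.0 CPM against 45.7 to 56.0 CPM) and a TE change of -0.31 ± 0.16. NUP35 had -0.32 ± 0.22.

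All 3 members of the membrane ring were TE-down and lower in polysome RNA. NUP210, whose large lumenal part encircles the pore, stood apart because its total RNA was lower too; it is described here although its values were known when it was picked. It had 400, 427 and 368 CPM in shCtrl total RNA against 144, 145 and 142 CPM in shPRRC2B total RNA, and 67.7, 57.7 and 76.2 CPM in shCtrl polysome RNA against 9.72, 9.46 and 11.4 CPM in shPRRC2B polysome RNA. The log2 change was -1.47 ± 0.12 in total RNA, -2.72 ± 0.14 in polysome RNA and -1.25 ± 0.18 in TE, so that polysome RNA was 6.59-fold lower in all. NDC1, which helps to seat the pore in the membrane, had 91.2, 118 and 122 CPM in shCtrl polysome RNA and 75.2, 65.2 and 58.7 CPM in shPRRC2B polysome RNA, with a TE change of -1.02 ± 0.18. POM121, a membrane nucleoporin of pore assembly, had a TE change of -1.36 ± 0.35 (edgeR adjusted p = 0.0084), with 8.43 CPM in shCtrl polysome replicate 1 against 20.3 and 23.1 CPM in the other shCtrl polysome libraries, so that the groups overlapped. It is nearly identical to POM121C, so that the split of reads between the 2 genes is uncertain.

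The 4 members of the central channel were split. NUP58 (-1.32 ± 0.20) and NUP98 (-1.17 ± 0.21) were TE-down, whereas NUP62 (-0.07 ± 0.18) and NUP54 (0.13 ± 0.24), which form a complex with NUP58 in the channel, had no call. NUP98, which also binds the mRNA export factor RAE1, had 98.2, 103 and 111 CPM in shCtrl total RNA and 172, 173 and 171 CPM in shPRRC2B total RNA, while polysome RNA overlapped at 20.4 to 25.7 CPM and 14.0 to 21.2 CPM. NUP62 was lower in both fractions by nearly the same amount. It had 107, 113 and 105 CPM against 73.6, 74.0 and 74.5 CPM in total RNA (log2 change -0.55 ± 0.13) and 36.3, 35.2 and 47.6 CPM against 27.3, 27.1 and 23.2 CPM in polysome RNA (-0.62 ± 0.13). About 20.4% of its exon bases are also exon of other genes, IL4I1 among them.

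The cytoplasmic face held both the lowest and the highest TE change of all members. RANBP2, the largest nucleoporin and a SUMO ligase that binds Ran, had 136, 137 and 157.5 CPM in shCtrl total RNA and 253, 276.5 and 256 CPM in shPRRC2B total RNA. Its polysome RNA went from 26.4, 26.5 and 36.4 CPM to 12.5, 9.84 and 6.85 CPM, with no overlap in either fraction. The TE change was -2.48 ± 0.24, a 5.57-fold lower TE (edgeR adjusted p = 1.05e-05). RANBP2 shares long stretches with the RGPD genes, and counts between them are uncertain.

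NUP214, the partner of NUP88 in a complex that docks mRNA and export complexes at the cytoplasmic face, had a TE change close to that of RANBP2; it too was chosen after its values were seen. Its total RNA overlapped, with 62.4, 57.9 and 58.5 CPM in shCtrl cells and 62.5, 66.3 and 61.0 CPM in shPRRC2B cells. Its polysome RNA was 11.2, 9.98 and 14.2 CPM in shCtrl cells and 2.67, 2.58 and 2.09 CPM in shPRRC2B cells, well apart. The TE change of -2.35 ± 0.23 (5.1-fold lower, edgeR adjusted p = 9.8e-06) therefore sat almost wholly in polysome RNA. NUP88 itself had -0.45 ± 0.16 (adjusted p = 0.0507), with higher total RNA (0.56 ± 0.11), and was TE-down without shCtrl polysome replicate 1 (-0.56) or shPRRC2B polysome replicate 1 (-0.51). Of its exon bases, 40.4% overlap other genes.

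NUP42, which works with the RNA helicase that strips proteins from exported mRNA, was TE-up. It had 27.6, 26.4 and 30.3 CPM in shCtrl total RNA and 13.9, 14.6 and 15.0 CPM in shPRRC2B total RNA. Its polysome RNA overlapped, at 30.1 to 42.9 CPM and 29.2 to 34.1 CPM. The TE change of 0.74 ± 0.20 (edgeR adjusted p = 0.0126) thus accompanied a total RNA lower by a log2 change of -0.96 ± 0.14, without a call in polysome RNA (-0.22 ± 0.15). The TE call was lost with the length trend removed, and 36% of its exon bases are shared with another annotated gene. RAE1 (-0.13 ± 0.20) and AAAS (-0.40 ± 0.17) had no call, although AAAS was TE-down without shCtrl polysome replicate 2 (-0.51).

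All 3 members of the nuclear basket were TE-down. TPR, the coiled-coil protein that forms the basket's filaments, had 359, 330 and 370 CPM in shCtrl total RNA and 276, 309 and 301 CPM in shPRRC2B total RNA, lower in each library but without a call (log2 change -0.26 ± 0.15). Its polysome RNA was 32.5, 26.2 and 34.9 CPM in shCtrl cells and 12.7, 11.5 and 7.23 CPM in shPRRC2B cells, and the TE change was -1.31 ± 0.23. NUP153, which ties the basket to the pore, had the same TE change of -1.31 ± 0.22 with overlapping total RNA. NUP50, a cofactor of importin alpha, had -0.84 ± 0.19. Its total RNA was higher (104, 101 and 111 CPM against 153, 151 and 148 CPM), with a log2 change of 0.52 ± 0.13 that was just past the threshold and below it without shCtrl total replicate 2 and without each of the polysome libraries (lowest value 0.47).

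**Figure D2:**
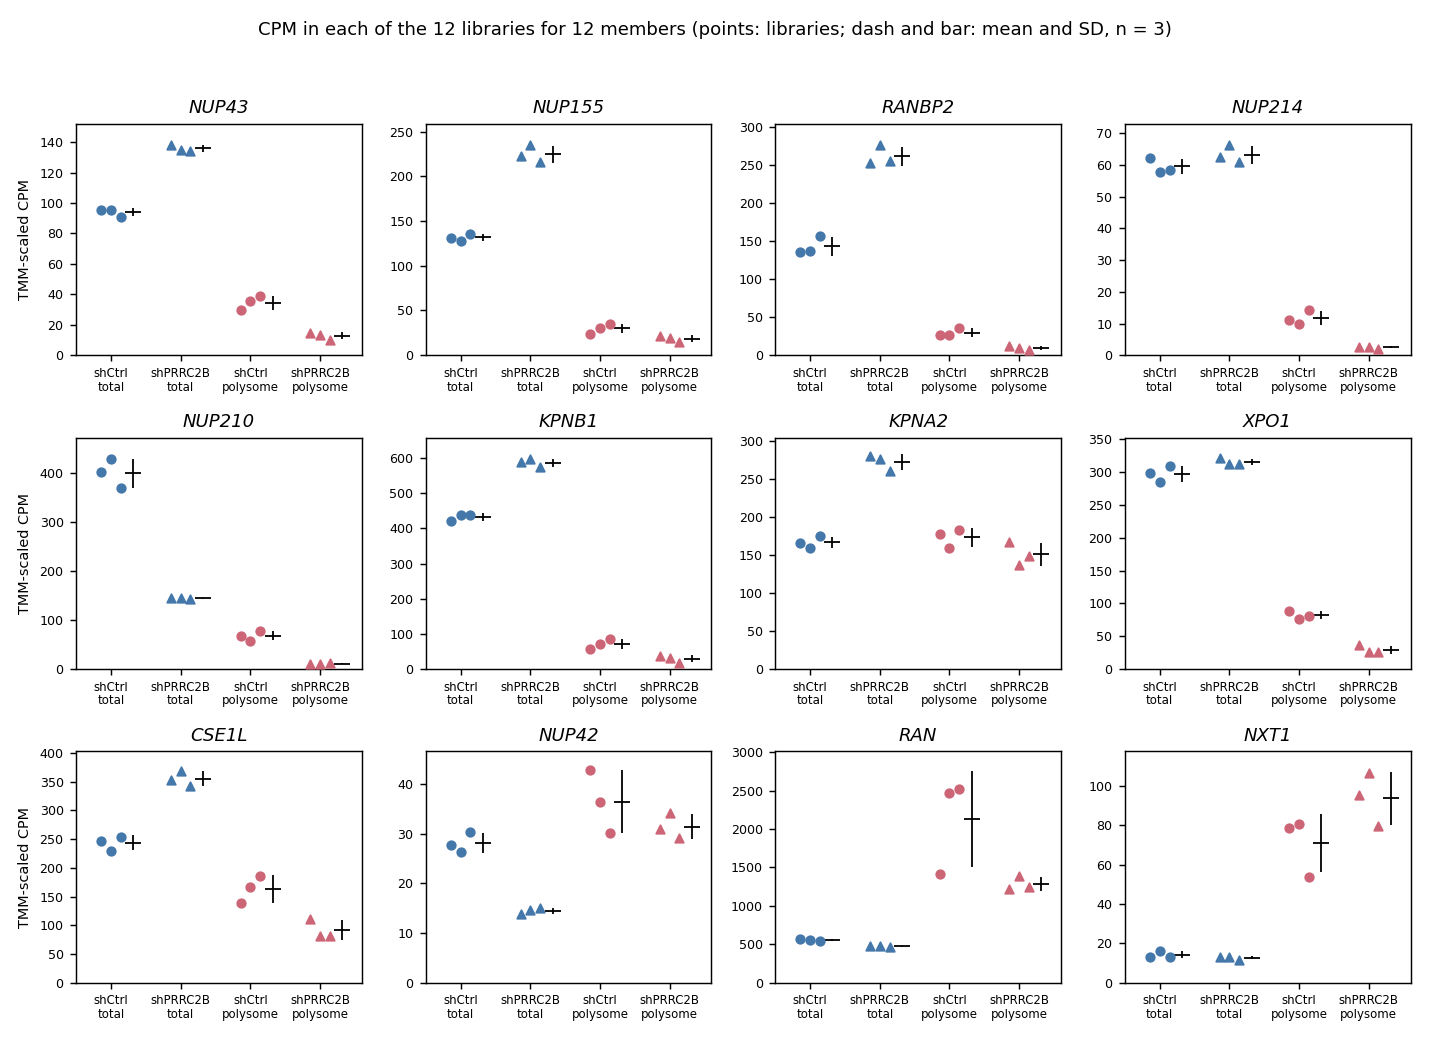
TMM-scaled CPM (y axes, linear from 0) of 12 members in each library of the 4 groups on the x axes, with circles for shCtrl, triangles for shPRRC2B, blue for total RNA and red for polysome RNA, and a dash and bar for the mean and SD of the 3 libraries. RANBP2, NUP43, NUP155 and CSE1L lie higher in total RNA and lower in polysome RNA of shPRRC2B cells, NUP210 lies lower in both, and NUP42 lies lower in total RNA alone.

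The importins of the alpha family bind the classical nuclear localisation signal and hand the cargo to KPNB1. Of the 6 tested, 4 were TE-down (KPNA6 -1.58 ± 0.31, KPNA3 -1.30 ± 0.23, KPNA4 -1.06 ± 0.19 and KPNA2 -0.91 ± 0.16), and 5 of the 6, all but KPNA2, were lower in polysome RNA. KPNA2, the family member typical of proliferating cells, differed in this respect. It had 165, 160 and 175 CPM in shCtrl total RNA and 280, 276 and 261 CPM in shPRRC2B total RNA, while polysome RNA overlapped at 159 to 183 CPM and 137 to 167 CPM. Its log2 change was 0.71 ± 0.12 in total RNA and -0.20 ± 0.12 in polysome RNA. In KPNA6 the call lay in polysome RNA and not in total RNA, with 99.1 to 104 CPM and 109 to 117 CPM in total RNA and 10.96, 21.1 and 17.3 CPM against 8.94, 4.39 and 4.76 CPM in polysome RNA. KPNA1 (-0.67 ± 0.27, adjusted p = 0.0756) and KPNA5 (-0.83 ± 0.32, adjusted p = 0.0612) had no TE call by edgeR, but were TE-down without shPRRC2B polysome replicate 1 (-1.05 and -1.12), KPNA5 also without shCtrl polysome replicate 2 (-1.03). Their lower polysome RNA in turn was no longer called without shPRRC2B polysome replicate 3, nor for KPNA5 without shCtrl polysome replicate 1.

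Import receptors of the importin beta family carry cargo either with importin alpha or directly. They had 9 of 11 members TE-down, and all 11 values of polysome RNA lay below 0. KPNB1, which takes the complexes of importin alpha and cargo through the pore, had 421, 438 and 439 CPM in shCtrl total RNA and 589, 596 and 573.5 CPM in shPRRC2B total RNA (log2 change 0.44 ± 0.19, not called). Its polysome RNA was 56.1, 70.5 and 85.9 CPM in shCtrl cells and 37.3, 31.3 and 17.7 CPM in shPRRC2B cells. The groups were apart in both fractions, and TE was 3.33-fold lower (-1.73 ± 0.28, edgeR adjusted p = 0.000313), the lowest of the transport receptors. IPO7 (-1.60 ± 0.22), IPO8 (-1.47 ± 0.22) and IPO5 (-1.36 ± 0.27), which import ribosomal proteins or histones among other cargo, followed. TNPO3, the importin of SR splicing factors, had -1.02 ± 0.20, and its relatives TNPO2 (-0.61 ± 0.17, TE-down) and TNPO1 (-0.72 ± 0.28, no call) had smaller values. TNPO1 was TE-down without shCtrl polysome replicate 1 (-0.96) or shPRRC2B polysome replicate 1 (-1.03), and its lower polysome RNA was not called without shCtrl polysome replicate 2 or 3 or shPRRC2B polysome replicate 3.

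IPO11 (-1.25 ± 0.23) was higher in total RNA (0.66 ± 0.15) and lower in polysome RNA (-0.60 ± 0.17), the latter not without shCtrl polysome replicate 3, where the change was -0.49. IPO13 (-0.61 ± 0.19, edgeR adjusted p = 0.0276), which works in both directions, lost its TE call in 6 of the 12 analyses without a single library, with changes of -0.56 to -0.83 over the 12, and also with scaling by library totals. These were shCtrl total replicates 1 and 3, shPRRC2B total replicates 1 and 2 and shPRRC2B polysome replicates 2 and 3. Its higher total RNA (0.53 ± 0.13) was not called without shCtrl total replicate 1 and without each of the polysome libraries (lowest value 0.48). IPO4 was too low to judge. It had 0.292 to 0.967 CPM in shCtrl total RNA and 0 to 0.281 CPM in shCtrl polysome RNA, 96.1% of its exon bases are also exon of other annotated genes, and its TE change of -0.06 had an SE of 1.19.

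Of the 6 exportins, 5 were TE-down (median log2 TE change -1.09). XPO1, the receptor for leucine-rich export signals, had 298, 284.5 and 310 CPM in shCtrl total RNA and 321, 313 and 313 CPM in shPRRC2B total RNA, close together (log2 change 0.09 ± 0.13). In polysome RNA it had 88.7, 76.3 and 80.4 CPM in shCtrl cells and 36.2, 25.1 and 25.5 CPM in shPRRC2B cells. TE was 3-fold lower (-1.58 ± 0.19, edgeR adjusted p = 3.71e-05). CSE1L, which returns importin alpha to the cytoplasm, had 248, 229 and 254 CPM against 353.5, 369 and 343 CPM in total RNA and 138, 166 and 186 CPM against 111, 81.6 and 80.6 CPM in polysome RNA. Its log2 change was 0.55 ± 0.14 in total RNA, a call that was lost without each of the polysome libraries in turn (lowest value 0.495), -0.84 ± 0.14 in polysome RNA and -1.38 ± 0.20 in TE (adjusted p = 0.000143).

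XPO4 had a TE change of -1.43 ± 0.27, and XPO5, the exporter of pre-miRNA, had -0.79 ± 0.17. XPO7 (-0.78 ± 0.24, edgeR adjusted p = 0.0235) lost its call without shCtrl total replicate 1 (-0.77), shPRRC2B total replicate 2 (-0.76) or shPRRC2B polysome replicate 2 (-0.70). XPO6, the exporter of actin, had the value nearest to 0 (-0.41 ± 0.19, adjusted p = 0.118) and was TE-down without shCtrl polysome replicate 3 (-0.57) or shPRRC2B polysome replicate 1 (-0.59).

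In the Ran cycle, 1 of 3 members was TE-down. RAN, the small GTPase that sets the direction of transport, had the highest level per kb of transcript, with 563, 558 and 543 CPM in shCtrl total RNA and 474, 482 and 461 CPM in shPRRC2B total RNA (log2 change -0.23 ± 0.17, not called). Its polysome RNA was 1414, 2466 and 2515 CPM in shCtrl cells and 1214, 1387 and 1251 CPM in shPRRC2B cells, lower by a log2 change of -0.73 ± 0.17 (edgeR adjusted p = 0.00235). One shCtrl polysome library, replicate 1, lay near the shPRRC2B libraries, and without it the TE change went from -0.50 ± 0.24 (adjusted p = 0.141) to -0.76 (adjusted p = 0.000468). RAN has processed pseudogenes, so that its count is uncertain. RANGAP1 had a TE change of -0.58 ± 0.19 (adjusted p = 0.0326) with 261, 270 and 243 CPM against 400, 388 and 363 CPM in total RNA and overlapping polysome RNA (63.0 to 74.2 CPM and 53.9 to 78.9 CPM). Its call was lost in 6 of the 12 analyses without a single library (shCtrl total replicates 1 to 3, shPRRC2B total replicates 1 and 2 and shPRRC2B polysome replicate 3), over which the change was -0.47 to -0.76. It was lost as well with scaling by library totals (-0.52, adjusted p = 0.0715), TMM within fractions (-0.52, 0.0559) and the length trend removed (-0.31, 0.206). RCC1, the exchange factor, had -0.09 ± 0.16.

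Neither subunit of the mRNA export receptor had a TE call. NXF1 had higher total RNA (44.8, 37.1 and 42.5 CPM against 57.7, 57.1 and 68.5 CPM, log2 change 0.56 ± 0.18), which was not called without shCtrl total replicate 2 or 3 or shPRRC2B total replicate 3 (lowest value 0.47), and a TE change of -0.21 ± 0.26. NXT1, its small partner, had 13.2, 16.2 and 13.0 CPM in shCtrl total RNA and 78.4, 80.4 and 53.9 CPM in shCtrl polysome RNA, the highest polysome-to-total ratio of all members. Its TE change of 0.56 ± 0.23 (edgeR adjusted p = 0.0785) was called TE-up without shCtrl polysome replicate 1 (0.60).

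The members had a low polysome-to-total ratio in both lines. In shCtrl cells the median log2 ratio was -1.41 over the members and -0.22 over all genes, with 44 of 56 members below the median of all genes, and in shPRRC2B cells the medians were -2.27 and -0.22, with 49 of 56 below. The ratio of all genes depends on the scaling between fractions (with TMM within each fraction its median was -1.22 in shCtrl cells). Scaling shifts all genes by nearly the same amount, so the count of 44 members below that median could hardly change with it. The ratio in shCtrl cells was lower in longer transcripts, with Pearson's r of -0.74 across the members and -0.45 across all genes. With the trend on transcript length removed, the members' medians were -0.54 in shCtrl and -1.23 in shPRRC2B cells. Those of all genes were then -0.03 and 0.0033, with 42 and 43 of 56 members below them. In shCtrl cells the ratio ran from -3.50 ± 0.17 for TPR to 2.32 ± 0.17 for NXT1, and the next highest values were those of RAN (1.94 ± 0.18), NUP35 (1.35 ± 0.16) and NUP37 (1.24 ± 0.14), the last pair within their SE of each other. The lowest ratios in shPRRC2B cells were those of TPR (-4.81 ± 0.19), RANBP2 (-4.75 ± 0.19) and NUP214 (-4.69 ± 0.17), within their SE of each other.

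**Figure D3:**
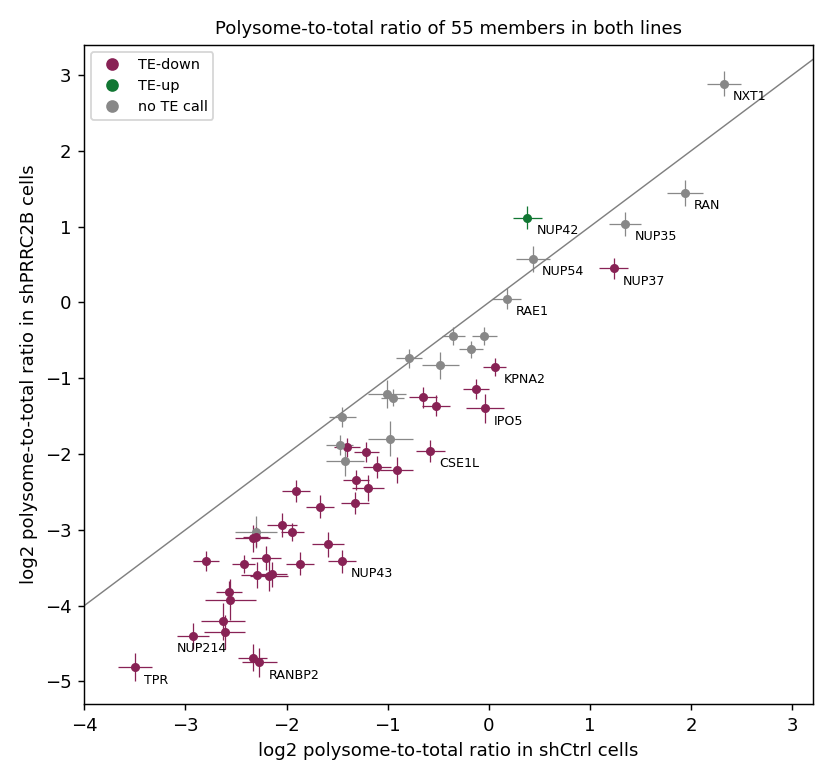
Log2 polysome-to-total ratio in shCtrl cells (x axis) and in shPRRC2B cells (y axis) of the tested members other than IPO4, with bars for the SE and the line of equal ratios. By the definition of the calls, TE-down members (purple) lie below the line and the TE-up member NUP42 (green) above it. The TE-down members range from TPR at -3.50 to NUP37 at 1.24 on the x axis.

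Per kilobase of the canonical transcript, the total RNA level in shCtrl cells ran from 0.203 CPM per kb for IPO4 and 3.35 for KPNA5 to 224 CPM per kb for RAN. The value of IPO4 leaves out pairs on exon bases shared with other genes. RAN was followed by KPNA2 (84.2 CPM per kb), KPNB1 (71.4), CSE1L (68.6), RANGAP1 (67.4), XPO1 (59.7), IPO5 (55.4) and NUP210 (55.3). On the same scale, polysome RNA of shCtrl cells was highest for RAN (861.5 CPM per kb), KPNA2 (87.6), NXT1 (66.8) and IPO5 (54.0). The abundant receptors thus differed in polysome RNA per kb. Their transcripts also differ in length (6058 nt for KPNB1 and 1977 nt for KPNA2), and the part of length in this was not tested. KPNB1, close to KPNA2 in total RNA per kb, had 11.7 CPM per kb in polysome RNA of shCtrl cells and 4.75 CPM per kb in that of shPRRC2B cells, compared with 87.6 and 76.3 CPM per kb for KPNA2.

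Members have long transcripts, and TE change varied with length in the series as a whole. The median canonical transcript was 5019.5 nt for the tested members and 3039.5 nt for the 15762 tested genes with an annotated length. The 37 TE-down members had a median of 5323 nt and the other 19 a median of 2474 nt. Across the 56 members, the TE change and log2 transcript length had Pearson's r of -0.66 and Spearman's rho of -0.60, compared with -0.31 and -0.41 across the 15762 genes. These are descriptions across genes, which share the same 12 libraries. Of the 28 members at or above the members' median length, 24 were TE-down, against 39.8% of the genes of that length, and of the 28 shorter ones 13 were, against 11.4%. Among the shorter TE-down members were NUP43 (3831 nt), CSE1L (3550 nt) and KPNA2 (1977 nt), and among the longer ones without a call NUP93, TNPO1, KPNA1 and KPNA5.

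With the dependence of counts on transcript length taken out of each library, 25 of the 56 members were TE-down, against 10.4% of the 15762 genes, and the median log2 TE change was -0.52. Of these, 24 were TE-down in both analyses, while 13 lost the call and 1, AAAS, gained it. The call remained for RANBP2, NUP214, NUP43, NUP155, NUP205, NUP188, NUP210, KPNB1, IPO5, IPO7, IPO8, XPO1 and CSE1L among others. Those that lost it were NUP107, NUP160, POM121, TPR, NUP50, KPNA4, IPO9, IPO13, TNPO2, XPO4, XPO5, XPO7 and RANGAP1. By role, 6 of 11 import receptors of the importin beta family, 3 of 5 inner ring and 3 of 7 outer ring members were TE-down after that step, but 1 of 3 basket members (NUP153) and 2 of 6 exportins (XPO1 and CSE1L). Across the 56 members, the TE change after that step still had Pearson's r of -0.21 and Spearman's rho of -0.14 with log2 transcript length. Across the 15762 genes these values were 0.0084 and -0.014. The part of transcript length in the TE changes was not tested further.

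**Figure D4:**
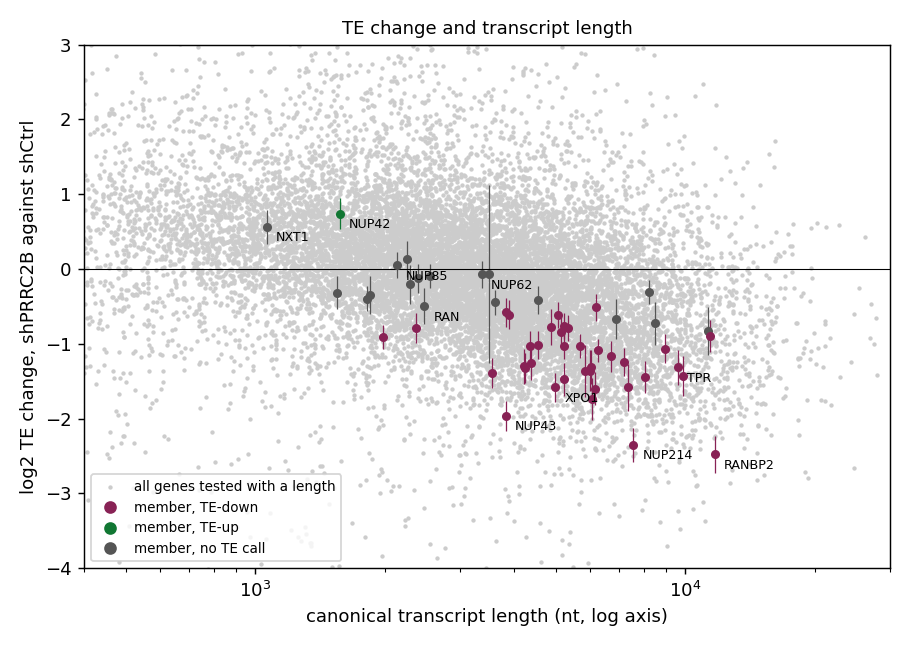
Log2 TE change (y axis) against the length of the canonical transcript in nt (x axis, log scale) for tested genes with a length (grey, axes limited to the range of most genes) and for the members (purple TE-down, green TE-up, dark grey no call) with bars for the SE. The members above 5019.5 nt lie below 0 throughout, with RANBP2 (-2.48) and NUP214 (-2.35) lowest, and the members above 0 are shorter.

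A list of 40 other genes of nuclear transport, which are no members, served for comparison. Of the 36 tested, 9 were TE-down (16.4% of all genes were) and 2 TE-up (10.7% of all genes were), and the median change in log2 TE was -0.22. The TE-down genes were AHCTF1, which seeds pore assembly on chromatin (-1.43 ± 0.33), THOC2 (-1.30 ± 0.23), THOC5 (-0.73 ± 0.26) and ALYREF (-0.88 ± 0.20) of the mRNA export machinery, the cap-binding NCBP1 (-1.21 ± 0.20), SENP1 (-1.06 ± 0.30), MCM3AP (-0.96 ± 0.21), POM121C (-0.80 ± 0.17) and the tRNA exporter XPOT (-0.79 ± 0.27). The TE-up genes were SEM1 (1.24 ± 0.24) and THOC6 (0.65 ± 0.19). The 36 tested genes had a median transcript length of 2752 nt, shorter than that of the members. Whether the lists differ was not tested.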

How the data were processed

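The authors deposited unnormalized counts of read pairs for each gene name in each library. The submitters' processing notes name bcl2fastq 2.19.0, Trimmomatic 0.36, HISAT2 2.1.0, featureCounts of Subread 2.0.1 and GRCh38. The counting options in the methods include no strand setting and none for pairs on several genes, so that counting was unstranded and pairs on exons of more than 1 gene were not counted by the tool's defaults. All columns of the table belong to a library (0 others), and groups were taken from the sample labels.

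Tests were run with edgeR 4.0.16 in R 4.3.3 (filterByExpr with a minimum count of 10, TMM scaling over all 12 libraries, glmQLFit and glmQLFTest without a block). CPM values other than the limits for KPNA7 are TMM-scaled. Adjusted p (Benjamini-Hochberg) refer to the 18166 genes that passed the filter. IPO4 had few counts, and pairs on the 96.1% of its exon bases shared with other annotated genes would not be counted. Its count need therefore not reflect its expression. The pipeline was tested on simulated counts of 17266 genes, of which 200 had a log2 TE change of 1.5 in either direction. It recovered 164 of these, with 11 false calls. Smaller changes were not simulated. Transcript lengths, positions and overlaps are those of canonical transcripts of the GENCODE annotation on GRCh38, and 86.8% of the genes tested had a length. Sites of PAR-CLIP were read as positions from the supplementary lists, and sequences from GRCh38.

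The members, roles and comparison list were chosen with earlier results of these data known. The rule for named genes took, in each role, the members with the lowest and highest TE change, XPO1, KPNB1, RAN, CSE1L, KPNA2, TPR, RANBP2, NUP98, NUP153, NUP62, NUP107, NXF1, RCC1 and any member not tested. Other members were added after their values were seen.

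Alternatives were DESeq2 1.42.0 and its size factors (RLE), scaling by library totals, TMM within fractions, all genes with a count, 10 counts in every library, a replicate block, a block for cultures within each line, the length trend removed from each library (lowess, span 0.3) with and without the replicate block, the 6 libraries of each fraction alone, and each library left out.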

Additional observations from a re-analysis of the deposited data

Results flagged for a closer look

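Total RNA and polysome RNA of 5 members were called in opposite directions between shPRRC2B and shCtrl cells, and the difference itself, the TE change, passed the test (edgeR's quasi-likelihood test, Benjamini-Hochberg adjustment). RANBP2 had a TE change of -2.48 (adjusted p = 1.05e-05), NUP43 of -1.96 (1.11e-05), NUP155 of -1.44 (0.000149), CSE1L of -1.38 (0.000143) and IPO11 of -1.25 (0.000755). Only RANBP2 kept the calls in both fractions under every alternative. NUP43 and CSE1L (0.53 and 0.55 in total RNA) lost the call in total RNA with scaling by library totals, with TMM within fractions, with the length trend removed and without each polysome library, NUP43 also with all genes with a count and with the 6 total libraries alone. In polysome RNA, NUP155 (-0.67) and IPO11 (-0.60) lost the call with the length trend removed, IPO11 also with the 6 polysome libraries alone and without shCtrl polysome replicate 3.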

How the results depend on the processing

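Of the 37 TE-down members, 23 were TE-down under all 22 alternatives for the TE change, 33 in all 12 analyses without a single library, and 10 lost the call only with the length trend removed (NUP98 only with the replicate block added). With the length trend removed, 0 members were TE-up, 6 were higher in total RNA and 1 in polysome RNA, and the median log2 TE change was -0.52; with the replicate block added, 24 were TE-down, 0 TE-up, 6 higher in total RNA and 1 in polysome RNA, and the median was -0.52. TE-up counts were 2 with 10 counts in every library and 2 with the replicate block alone, under which 36 were TE-down and NUP107 was not (-0.52, adjusted p = 0.0542). With scaling by library totals 5 members were higher in total RNA, as were 2143 of the 18166 genes. Leaving out single libraries gave 33 to 43 TE-down and 1 to 2 TE-up members, 8 to 13 higher in total RNA and medians of -0.85 to -1.05.

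Some TE changes turned sign. With the length trend removed, without and with the replicate block, NUP107 was at 0.0551 and 0.0546, NUP85 at -0.0537 and -0.0604, NUP93 at 0.42 and 0.42, NUP62 at 0.11 and 0.12 and IPO4 at 0.13 and 0.11. IPO4 was at 0.00485 with TMM within fractions. Without single libraries, NUP85 ranged from -0.0536 to 0.12, NUP54 from -0.14 to 0.22, NUP62 from -0.20 to 0.0243 and IPO4 from -0.64 to 1.12. The causes were not tested.

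Deviations of same-numbered libraries from their group means correlated between -0.20 and 0.16 over all pairs of groups. Between total and polysome RNA of the same line the correlations were 0.0054 to 0.079. Whether same-numbered libraries came from the same culture cannot be told from these values, since noise of the fractions could hide a shared culture. Where calls rest on low polysome counts, as in NUP214, KPNA6 or POM121, depth limits the precision.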
